A study of Homo sapiens with 64 samples.

Results

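The cholesterol synthesis pathway and its control by the transcription factor SREBP2 were followed across 26 genes in human adrenocortical cells in which NNT was knocked down. The genes were chosen by name from their known roles, with earlier results of these data known. There were 19 enzymes, of which 8 act in the mevalonate and isoprenoid steps and 11 act between squalene and cholesterol. The other 7 genes encode parts of the SREBP2 control system or a sterol carrier. All 26 were among the 26364 gene rows, and all 26 were among the 15201 genes that had enough counts for a test. The smallest count of any of them in any library was 98.

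NCI-H295R is an established line from an adrenocortical carcinoma that makes steroid hormones. NNT encodes nicotinamide nucleotide transhydrogenase, an inner mitochondrial membrane enzyme that makes NADPH, and the series set out to weigh it as a target in this cancer. Messenger RNA was sequenced from cells given NNT siRNA-2 (3 libraries), cells given NNT siRNA-3 (3 libraries) and cells given a scrambled siRNA (3 libraries), all taken 72 h after transfection, and from cells carrying an NNT shRNA (4 libraries) or a scrambled shRNA (3 libraries). The siRNA and shRNA sequences, the shRNA vector, and whether the shRNA cells were a pool or a clone are not stated. A library is called by its group plus its title code, for example 11-1, whose meaning is not stated. Separate cultures are not stated for the libraries of a group, so the p-values cover only the spread among these libraries, which may be technical.

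Cholesterol is built from acetyl-CoA through mevalonate, isoprenoids and squalene, and several of the steps consume NADPH. SREBP2, the product of SREBF2, waits in the endoplasmic reticulum bound to SCAP. INSIG proteins hold that complex there when sterols are plentiful, and when sterols fall it moves to the Golgi, where the proteases encoded by MBTPS1 and MBTPS2 release the active factor, which then drives the enzyme genes and INSIG1 itself. Adrenocortical cells use cholesterol as the raw material of steroid hormones.

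The 16 libraries held 20148231 to 43992833 gene counts each. Levels are given as CPM, the read count relative to the scaled library total. NNT stood at 233, 49.9 and 187 CPM in the siRNA-2 libraries 11-12, 11-1 and 16-1, at 36.1, 31.8 and 47.8 CPM in the siRNA-3 libraries 11-1, 23-5 and 30-11, and at 353, 297 and 362 CPM in the scrambled siRNA libraries 16-1, 23-5 and 30-11. It stood at 28.7 to 34.6 CPM in the 4 NNT shRNA libraries, against 317 to 415 CPM in the 3 scrambled shRNA libraries. The siRNA-2 libraries thus kept more NNT message than the others with a knockdown, and library 11-1 kept the least of the 3. Against the scrambled siRNA, NNT with siRNA-2 did not reach an adjusted p under 0.05 (log2 fold change -1.105, SE 0.32, adjusted p = 0.0777, edgeR's quasi-likelihood test). It did with siRNA-3 (-3.127, adjusted p = 0.0001725) and, against the scrambled shRNA, with the NNT shRNA (-3.544, adjusted p = 2.365e-05). All 9 adrenocortical markers were detected, with a summed level of 1327 to 2399 CPM. Summed fibroblast markers lay between 7.99 and 21.96 CPM, leukocyte markers between 0.612 and 1.496 CPM, and endothelial markers at or below 0.178 CPM.

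The promoters of INSIG1 and MSMO1 are printed because these genes carry the main differences below, and that of SREBF2 because it was the 1 gene of the pathway whose window held the sterol response element searched for. Each is the 250 bases before the RefSeq start of the gene on its own strand (GRCh38.p14): chr7:155297628-155297877 (plus strand) for INSIG1, chr4:165327419-165327668 (plus strand) for MSMO1 and chr22:41832855-41833104 (plus strand) for SREBF2. The GENCODE annotation used for exon lengths places the first base of each gene further upstream, at 155297776 for INSIG1, 165327623 for MSMO1 and 41833079 for SREBF2, so the last bases of each stretch lie inside the gene by that annotation. Capitals mark the core of the NF-Y box, CCAAT, or its reverse complement, and in SREBF2 also the match to the sterol response element core.
INSIG1: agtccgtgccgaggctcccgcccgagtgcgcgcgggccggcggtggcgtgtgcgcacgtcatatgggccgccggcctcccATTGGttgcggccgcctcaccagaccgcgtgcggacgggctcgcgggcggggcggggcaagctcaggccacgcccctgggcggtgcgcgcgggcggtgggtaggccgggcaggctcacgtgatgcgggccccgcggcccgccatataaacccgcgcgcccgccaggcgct
MSMO1: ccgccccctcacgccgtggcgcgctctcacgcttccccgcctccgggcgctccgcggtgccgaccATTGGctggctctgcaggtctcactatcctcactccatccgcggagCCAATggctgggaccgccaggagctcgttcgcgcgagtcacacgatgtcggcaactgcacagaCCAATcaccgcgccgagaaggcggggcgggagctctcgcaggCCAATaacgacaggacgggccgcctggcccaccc
SREBF2: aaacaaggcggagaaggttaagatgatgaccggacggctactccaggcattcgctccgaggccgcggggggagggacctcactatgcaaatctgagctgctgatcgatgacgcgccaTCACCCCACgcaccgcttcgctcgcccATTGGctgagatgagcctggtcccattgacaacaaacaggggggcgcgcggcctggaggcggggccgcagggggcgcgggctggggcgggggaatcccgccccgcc

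A search on both strands of windows from 250 bases before to 50 bases after each start had an entry for 23 of the 26 genes. The 2 motifs shared no bases in the SREBF2 window, where both occurred. CCAAT, which binds NF-Y, a factor known to work beside SREBPs, was found for 17 of the 23 genes (73.9%) and for 14 of the 16 enzymes with an entry (87.5%), against 39.7% of all 27305 genes with an entry. With bases counted from the start as negative numbers going upstream, MSMO1 held 4 copies, between -185 and -30, of which the last, at -34 to -30, lies inside the gene as GENCODE places it, and INSIG1 held 1, at -170 to -166. The sterol response element core TCACNCCAC was found for SREBF2 alone, at -133 to -125, and for 1.39% of all genes. These letters are only 1 form of the element, and a match describes the sequence.

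HMGCS1, which makes HMG-CoA at the entry to the pathway, had by far the highest level of the 26 genes when levels were set per length. It averaged 407 CPM per kb of merged exon over the 16 libraries, followed by the farnesyl diphosphate synthase gene FDPS (204.5), the late sterol reductase gene DHCR7 (156), and INSIG1 (125). At the low end stood INSIG2 (8.72 CPM per kb), the geranylgeranyl diphosphate synthase gene GGPS1 (7.30), MBTPS2 (5.37) and the sterol reductase gene TM7SF2 (3.02). INSIG1 thus had the higher level of the INSIG genes. Of the merged exon length of HMGCS1, 19.9% overlaps an antisense gene, and 11.3% of that of GGPS1 overlaps TBCE on the same strand. How reads in these overlaps were counted is not stated, so the levels of HMGCS1 and GGPS1, and ratios to HMGCS1, are uncertain to that extent. INSIG2, which acts like INSIG1 on SCAP, gave no call in any comparison in edgeR's test, at 20.1 to 23.4 CPM in siRNA-2 cells, 22.9 to 26.7 CPM in siRNA-3 cells, 20.2 to 21.97 CPM in scrambled siRNA cells, 19.1 to 25.2 CPM in NNT shRNA cells and 20.7 to 25.7 CPM in scrambled shRNA cells. Its siRNA-3 libraries each lay above each scrambled siRNA library (log2 fold change 0.24, SE 0.12, adjusted p = 0.302).

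**Figure D1:**
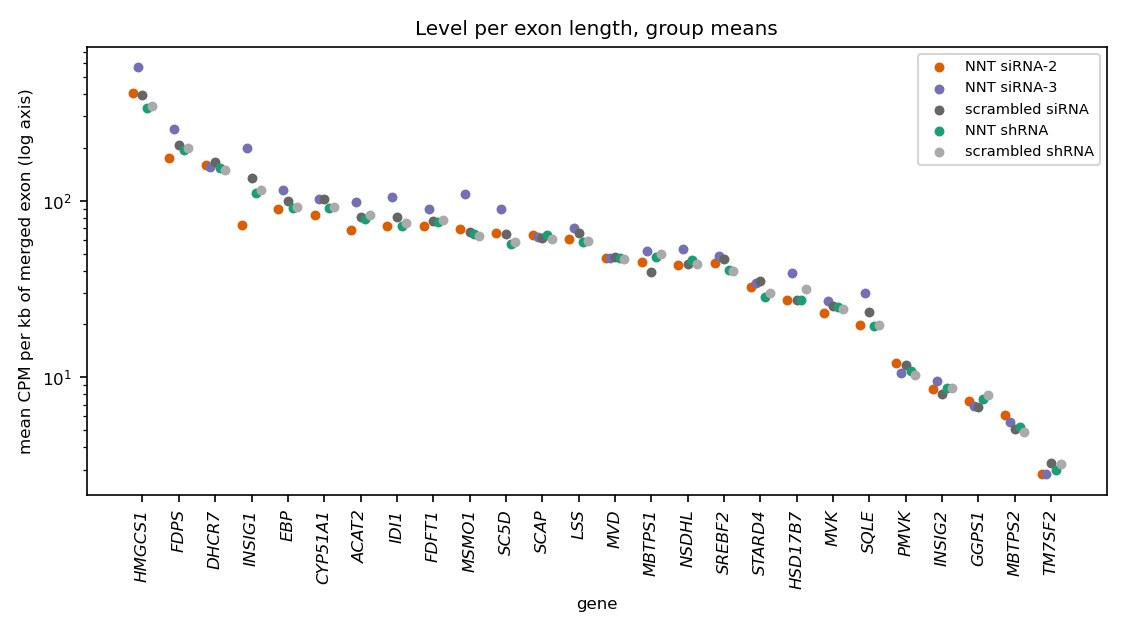
Mean level of each of the 26 genes in CPM per kb of merged exon (log axis), 1 point per group, with genes ordered by their mean over the 16 libraries. HMGCS1 stands at 407 and TM7SF2 at 3.02 CPM per kb, and the points of a gene spread most for INSIG1, where siRNA-2 is lowest and siRNA-3 highest.

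Most of the calls within the pathway were between the siRNAs. With siRNA-2, 6 of the 26 genes were lower than with siRNA-3 (edgeR's quasi-likelihood test, adjusted p under 0.05 over all 15201 genes), and none was higher: INSIG1, SQLE, MSMO1, SC5D, ACAT2 and IDI1. Among all genes tested, 14.4% passed in this comparison, with 7.36% higher and 7.05% lower with siRNA-2. The median log2 fold change of the 26 genes was -0.26, against 0.0075 for all genes, and 7 of the 26 lay above 0. The groups did not overlap for 11 genes that were lower and for 1 that was higher with siRNA-2, against 15.5% and 16.1% of all genes. The groups that were compared also differed in NNT itself, which was higher with siRNA-2 (log2 fold change 2.02, SE 0.34, adjusted p = 0.00111 in the same edgeR test).

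Set against the shared scrambled siRNA, each siRNA gave few calls. With siRNA-2, 1 of the 26 genes passed, INSIG1, which was lower. In that comparison 1.97% of all genes passed, and 0.974% of all genes passed as lower. The median of the 26 genes was -0.06, against 0.0068 for all genes. With siRNA-3, 2 genes passed, MSMO1 and MBTPS1, and both were higher. There 2.12% of all genes passed, and 0.862% of all genes passed as higher. The median of the 26 genes was 0.21, against -0.0035 for all genes, with 21 of the 26 genes above 0. The siRNA-2 and scrambled siRNA libraries did not overlap for 1 of the 26 genes that was higher and 3 that were lower. Over all 15201 genes the counts were 1825 and 1587. For siRNA-3 the counts were 8 higher and 2 lower of the 26 genes, against 1618 and 1590 of all genes. These comparisons share their control libraries, so a high or low control moves both.

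With the NNT shRNA, 0 of the 26 genes passed against the scrambled shRNA in edgeR's test, 0 had an unadjusted p under 0.05, and 0 passed in DESeq2. Among all genes 0.0197% passed in edgeR's test, NNT among them, and 1.43% had an unadjusted p under 0.05. The median was -0.03, against 0.0062 for all genes, and it turned to 0.08 with the title code as a block, to 0.065 without NNT shRNA library 2-3 and to 0.08 without scrambled shRNA library 19-2. The lowest log2 fold change of the 26 was -0.22 (SE 0.18, adjusted p = 1), for HSD17B7, a keto-reductase of sterol demethylation, and the highest was 0.09, for SCAP (SE 0.09) and MBTPS2 (SE 0.11). Between the controls, scrambled siRNA against scrambled shRNA, 0 of the 26 passed in edgeR's test and 2 had an unadjusted p under 0.05, MBTPS1 and SREBF2, and DESeq2 called 1, MBTPS1. After MBTPS1 and SREBF2, GGPS1 had the smallest p in edgeR's test (log2 fold change -0.22, SE 0.12, adjusted p = 0.353). Among all genes 1.74% passed and 16.8% had an unadjusted p under 0.05.

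The test of the shRNA effect minus the siRNA-3 effect, which sets side by side the knockdowns that left the least NNT, gave 0 calls among the 26 genes, with 5 at an unadjusted p under 0.05, against 0.046% and 10.3% of all genes in edgeR's test. DESeq2 called 1 of them, MBTPS1 (log2 difference -0.45, adjusted p = 0.0421). The median of the 26 differences was -0.21, against 0.0030 for all genes. MBTPS1 (-0.44, SE 0.12, adjusted p = 0.196), MSMO1 (-0.69, SE 0.24, adjusted p = 0.342) and HSD17B7 (-0.73, SE 0.27, adjusted p = 0.365) had the smallest p. An adjusted p above the threshold does not show that the effects were alike.

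**Figure D2:**
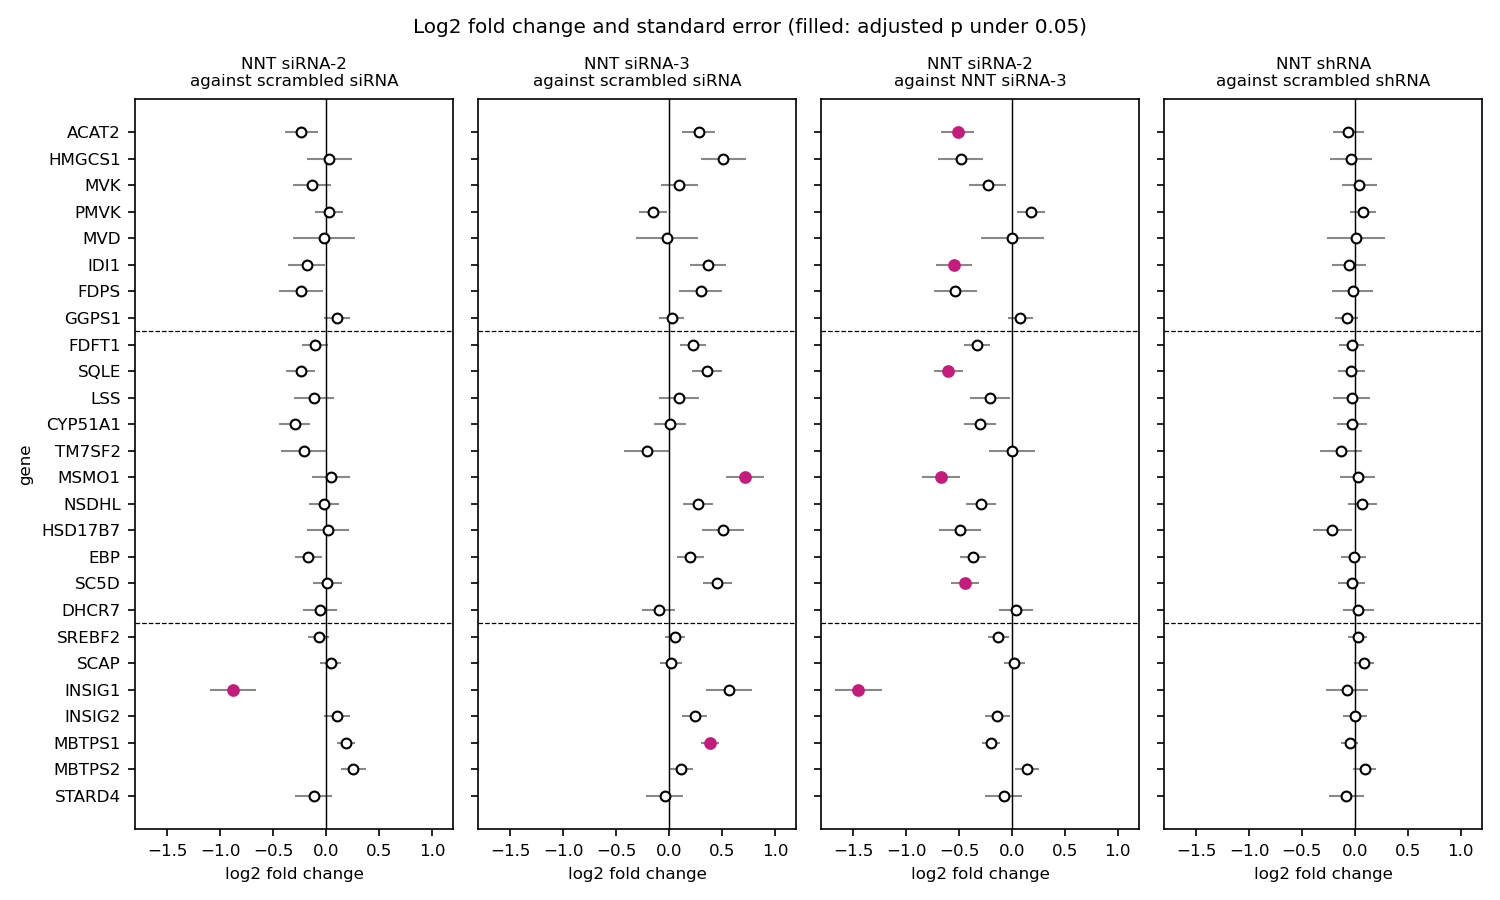
Log2 fold change of each gene (points) with its standard error (bars) in 4 comparisons, filled where the adjusted p was under 0.05. Dashed lines part the mevalonate and isoprenoid enzymes (top), the enzymes from squalene to cholesterol (middle) and the control genes (bottom). Filled points number 1 for siRNA-2 against scrambled siRNA, 2 for siRNA-3 against scrambled siRNA, 6 for siRNA-2 against siRNA-3 and 0 for the shRNA.

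In the mevalonate and isoprenoid steps, 2 of the 8 enzymes passed between the siRNAs, ACAT2 and IDI1, both lower with siRNA-2. ACAT2, the cytosolic thiolase that makes acetoacetyl-CoA, stood at 199.7, 226 and 229 CPM in the siRNA-2 libraries 11-12, 11-1 and 16-1, against 358, 290.1 and 287 CPM in the siRNA-3 libraries 11-1, 23-5 and 30-11. Every siRNA-2 library lay below every siRNA-3 library, and the scrambled siRNA libraries, at 244, 252 and 273 CPM, lay between them without overlap. The log2 fold change between the siRNAs was -0.51 (SE 0.16, adjusted p = 0.0365). That call passed in 2 of the 6 fits that left out 1 library of these groups. It was lost without siRNA-2 library 11-12 (adjusted p = 0.0974), 11-1 (adjusted p = 0.0782) or 16-1 (adjusted p = 0.0586), without siRNA-3 library 11-1 (adjusted p = 0.158), and with lane 1 only (adjusted p = 0.0613). Against the scrambled siRNA the log2 fold changes of ACAT2 were -0.23 (SE 0.16, adjusted p = 0.457) with siRNA-2 and 0.28 (SE 0.16, adjusted p = 0.373) with siRNA-3, and neither passed. Exons of ACAT2 overlap those of SOD2 (34.8% of its merged exon length) and TCP1 (12.5%) on the opposite strand, and the strand setting of the counting is not stated, so its level is uncertain.

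IDI1, the isomerase that makes the isoprenoid building block dimethylallyl diphosphate, stood at 221, 315 and 249.8 CPM in siRNA-2 cells, against 454, 327 and 369 CPM in siRNA-3 cells. These groups did not overlap, though siRNA-2 library 11-1 came close to siRNA-3 library 23-5, and the scrambled siRNA libraries, at 252, 312 and 329 CPM, covered much of the siRNA-2 range. The log2 fold change between the siRNAs was -0.55 (SE 0.17, adjusted p = 0.0383). This call too passed in 2 of the 6 leave-out fits. It was lost without siRNA-2 library 11-12 (adjusted p = 0.122) or 16-1 (adjusted p = 0.0972), without siRNA-3 library 11-1 (adjusted p = 0.176) or 30-11 (adjusted p = 0.0564), with only the groups compared (adjusted p = 0.0720) and with lane 1 only (adjusted p = 0.0522). Against the scrambled siRNA it was -0.18 (SE 0.17, adjusted p = 0.611) with siRNA-2 and 0.37 (SE 0.17, adjusted p = 0.270) with siRNA-3.

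HMGCS1 stood at 1210, 1905 and 1195 CPM in siRNA-2 cells, 2489, 1716 and 1817 CPM in siRNA-3 cells, and 1029, 1540 and 1652 CPM in scrambled siRNA cells. Each siRNA-3 library was above each scrambled library, and siRNA-2 library 11-1 lay within the siRNA-3 range. The log2 fold changes were 0.51 for siRNA-3 against scrambled (SE 0.21, adjusted p = 0.211) and -0.48 for siRNA-2 against siRNA-3 (SE 0.21, adjusted p = 0.134). FDPS stood at 271 to 308 CPM in siRNA-2 cells, 331 to 489 CPM in siRNA-3 cells and 268 to 443 CPM in scrambled siRNA cells, and siRNA-2 and siRNA-3 did not overlap (log2 fold change -0.54, SE 0.20, adjusted p = 0.0886). A further 28.9% of its merged exon length overlaps an antisense gene, RUSC1-AS1, which leaves the same uncertainty as for ACAT2.

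The other 4 enzymes of these steps showed no call in any comparison in edgeR's test in the reported fit. With the title code as a block, MVD passed between the siRNAs. MVK and PMVK, the kinases of mevalonate and phosphomevalonate, had group means of 67.7 to 79.4 CPM and 13.2 to 15.3 CPM over the 5 groups. GGPS1 had group means of 21.1 to 24.6 CPM. MVD, the decarboxylase, had nearly equal group means of 85.4 to 87.4 CPM but a wide spread inside groups, with 119.5 CPM in siRNA-2 library 11-1 against 61.4 CPM in siRNA-2 library 11-12, and 44.9 CPM in NNT shRNA library 2-3 against 129 CPM in NNT shRNA library 19-2. Its largest group SD was 35.6 CPM on a mean of 86.0 CPM, in the NNT shRNA group.

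From squalene to cholesterol, 3 of the 11 enzymes passed between the siRNAs, SQLE, MSMO1 and SC5D, all lower with siRNA-2. SQLE, squalene epoxidase, stood at 62.3, 57.9 and 56.9 CPM in siRNA-2 cells, against 92.0, 85.8 and 90.6 CPM in siRNA-3 cells. The groups were tight and far apart, while the scrambled siRNA libraries ran from 48.7 CPM (16-1) through 77.2 CPM (23-5) to 83.2 CPM (30-11) and covered the whole siRNA-2 range. The log2 fold change between the siRNAs was -0.60 (SE 0.14), a 1.51-fold lower level with siRNA-2 (adjusted p = 0.00861), and it passed in each of the 6 fits that left out 1 library of these groups. SQLE against the scrambled siRNA had a log2 fold change of -0.24 with siRNA-2 (SE 0.14, adjusted p = 0.375) and 0.36 with siRNA-3 (SE 0.14, adjusted p = 0.178). In the shRNA cells SQLE was at 52.9 to 62.7 CPM in NNT shRNA cells and 53.7 to 63.2 CPM in scrambled shRNA cells, close to its siRNA-2 level.

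MSMO1, a monooxygenase that takes part in removing methyl groups from the sterol ring, was called in 2 of the 6 comparisons. It stood at 159, 207 and 159 CPM in siRNA-2 cells, at 353, 251 and 231 CPM in siRNA-3 cells, and at 137, 176 and 195 CPM in scrambled siRNA cells. All 3 siRNA-3 libraries were higher than every other library of the series, while siRNA-2 and scrambled libraries overlapped. Group means were 175 ± 27.9 CPM in siRNA-2 cells, 278 ± 65.5 CPM in siRNA-3 cells and 169.5 ± 29.6 CPM in scrambled siRNA cells (SD, n = 3 each). The log2 fold change was 0.72 for siRNA-3 against scrambled (SE 0.18, adjusted p = 0.0438), a 1.64-fold higher level, and -0.67 for siRNA-2 against siRNA-3 (SE 0.18, adjusted p = 0.0178). The call between the siRNAs passed in 3 of the 6 leave-out fits, and was lost without siRNA-2 library 11-12 (adjusted p = 0.0530) or 16-1 (adjusted p = 0.0602), without siRNA-3 library 11-1 (adjusted p = 0.112), and with only the groups compared (adjusted p = 0.0574). For siRNA-2 against scrambled it was 0.05 (SE 0.18, adjusted p = 0.922). The call against the scrambled siRNA was lost without siRNA-3 library 11-1 (log2 fold change 0.52, adjusted p = 0.247), siRNA-3 library 23-5 (adjusted p = 0.0581), scrambled library 16-1 (adjusted p = 0.160) or scrambled library 23-5 (adjusted p = 0.106), in a fit of only the groups compared (adjusted p = 0.0917) and with robust dispersion (adjusted p = 0.0510).

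SC5D, a late sterol desaturase, stood at 156.5, 203 and 169 CPM in siRNA-2 cells, 286, 233 and 199 CPM in siRNA-3 cells, and 166, 186 and 171 CPM in scrambled siRNA cells. Each siRNA-3 library was above each scrambled library, but siRNA-3 library 30-11 lay just below siRNA-2 library 11-1. The log2 fold change was -0.44 for siRNA-2 against siRNA-3 (SE 0.13, adjusted p = 0.0330) and 0.46 for siRNA-3 against scrambled (SE 0.13, adjusted p = 0.0764), which passed without siRNA-3 library 30-11 (adjusted p = 0.0272) and in DESeq2 (adjusted p = 0.0310). The call between the siRNAs passed in 2 of the 6 leave-out fits. It was lost without siRNA-2 library 11-12 (adjusted p = 0.107) or 16-1 (adjusted p = 0.0906), without siRNA-3 library 11-1 (adjusted p = 0.186) or 23-5 (adjusted p = 0.0565), and with only the groups compared (adjusted p = 0.103). For siRNA-2 against scrambled it was 0.01 (SE 0.13, adjusted p = 0.972).

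The remaining 8 enzymes of these steps gave no call in edgeR's test in the reported fit. Between the siRNAs, EBP was called by DESeq2, without the low-count filter and without siRNA-2 library 11-1. HSD17B7 was called with lane 1 only, and CYP51A1 without siRNA-3 library 23-5. FDFT1, squalene synthase, EBP, a sterol isomerase, and NSDHL, a sterol dehydrogenase, each had every siRNA-2 library below every siRNA-3 library, with log2 fold changes between the siRNAs of -0.33 (SE 0.12, adjusted p = 0.0837), -0.37 (SE 0.13, adjusted p = 0.0568) and -0.29 (SE 0.14, adjusted p = 0.184). FDFT1 stood at 302 to 364 CPM in siRNA-2 cells and 371 to 455 CPM in siRNA-3 cells, EBP at 147 to 178 CPM in siRNA-2 cells and 194 to 219.8 CPM in siRNA-3 cells, and NSDHL at 82.4 to 92.1 CPM in siRNA-2 cells and 100.6 to 114 CPM in siRNA-3 cells. HSD17B7 reached 69.1 CPM in siRNA-3 library 11-1, with the other siRNA-3 libraries at 44.4 and 49.5 CPM, against 30.5 to 48.1 CPM in scrambled siRNA cells (log2 fold change 0.51, SE 0.20, adjusted p = 0.180). A near-identical row, HSD17B7P2, held 5.11 to 10.3 CPM, and how reads were split between it and HSD17B7 is not known.

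LSS, the cyclase that makes lanosterol, had group means of 312 to 376 CPM, and CYP51A1, the demethylase of lanosterol, had means of 277 to 342 CPM. CYP51A1 was the least regular with siRNA-3, at 437, 238 and 352 CPM, and the most regular with siRNA-2, at 275, 274 and 283 CPM. Its siRNA-2 libraries lay below each scrambled siRNA library, at 293 to 379 CPM (log2 fold change -0.30, SE 0.15, adjusted p = 0.297). DHCR7 ran the other way from most enzymes, with 410.3, 419 and 411 CPM in siRNA-3 cells, below each scrambled siRNA library at 435, 426 and 465 CPM (log2 fold change -0.10, SE 0.16, adjusted p = 0.800). TM7SF2 was the scarcest gene, with group means of 4.84 to 5.59 CPM. With siRNA-3 against the scrambled siRNA, 15 of the 19 enzymes had a log2 fold change above 0, and 4 had one below 0, PMVK, MVD, TM7SF2 and DHCR7.

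Among the control genes, INSIG1 had the widest range. Its GENCODE annotation on GRCh38 spans chr7:155297776-155310235 on the plus strand, in 7 merged exons. INSIG1 stood at 242, 191 and 239 CPM in the siRNA-2 libraries 11-12, 11-1 and 16-1, at 724, 487 and 624 CPM in the siRNA-3 libraries 11-1, 23-5 and 30-11, and at 295, 366 and 575 CPM in the scrambled siRNA libraries 16-1, 23-5 and 30-11. In the shRNA cells it was at 366, 378, 255 and 355 CPM in NNT shRNA cells (18-3, 19-2, 2-3 and 24-2), against 324, 455 and 289.5 CPM in scrambled shRNA cells (18-3, 19-2 and 24-2). Every siRNA-2 library lay below each of the other 13 libraries of the series, whereas siRNA-3 and scrambled siRNA overlapped.

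INSIG1 averaged 224 ± 28.9 CPM in siRNA-2 cells, 612 ± 119 CPM in siRNA-3 cells and 412 ± 146 CPM in scrambled siRNA cells (SD, n = 3 each). It was 2.73-fold lower with siRNA-2 than with siRNA-3 (log2 fold change -1.45, SE 0.22, adjusted p = 0.000625 in edgeR's test). That call held in each of the 6 fits that left out 1 library of these groups, with log2 fold changes of -1.59 to -1.32. Against the scrambled siRNA, INSIG1 was 1.84-fold lower with siRNA-2 (log2 fold change -0.88, SE 0.22, adjusted p = 0.0437), and with siRNA-3 the log2 fold change was 0.57 (SE 0.22, adjusted p = 0.170). The siRNA-2 call against scrambled was lost without siRNA-2 library 11-1 (adjusted p = 0.196) or 16-1 (adjusted p = 0.0649), without scrambled library 16-1 (adjusted p = 0.0601), 23-5 (adjusted p = 0.105) or 30-11 (log2 fold change -0.57, adjusted p = 0.131), and with only the groups compared (adjusted p = 0.204) or robust dispersion (adjusted p = 0.0604). Without scrambled library 30-11, the highest of its group, the siRNA-3 value passed (log2 fold change 0.88, adjusted p = 0.0377). With the shRNA the log2 fold change of INSIG1 was -0.07 (SE 0.20, adjusted p = 1), and between the scrambled controls it was 0.21 (SE 0.22, adjusted p = 0.673).

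**Figure D3:**
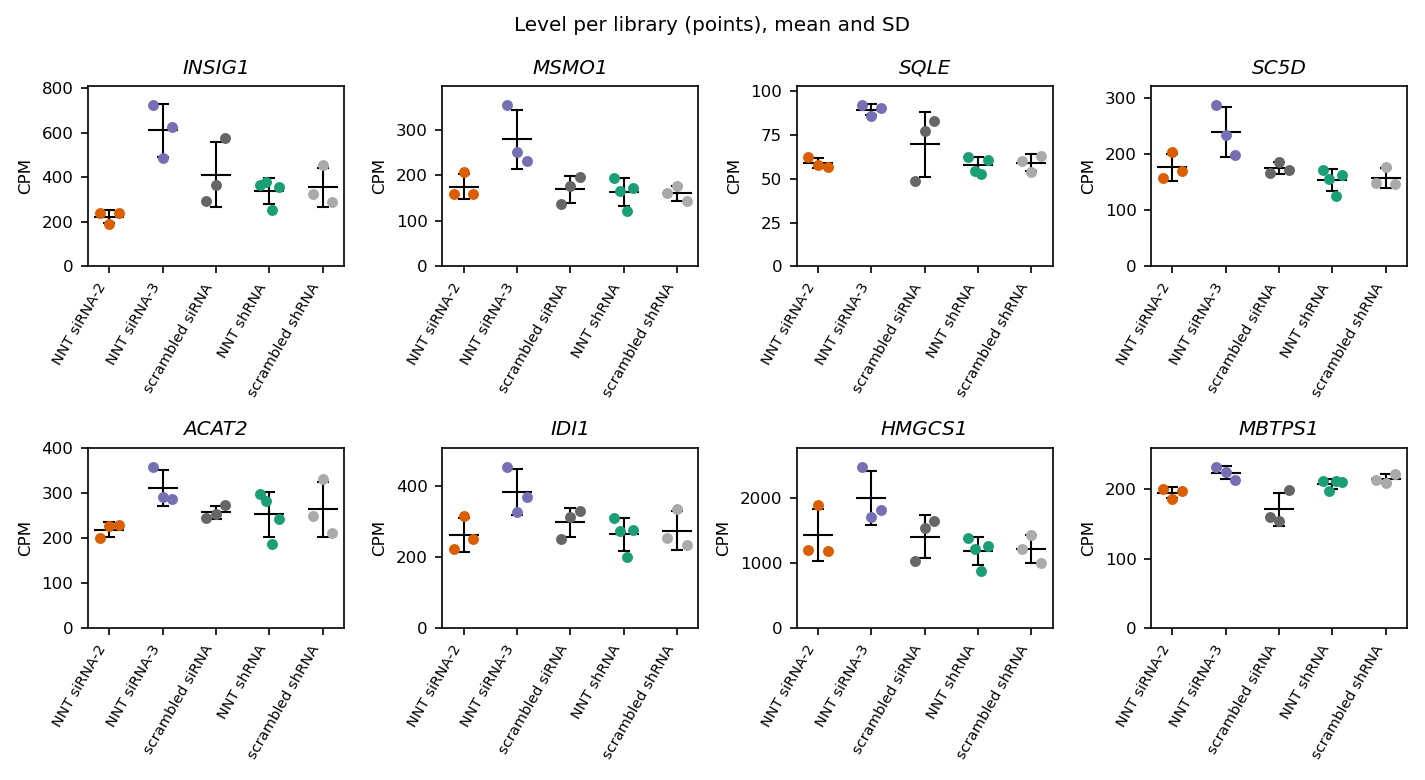
CPM of 8 genes in each library (points), with the group mean (wide bar) and SD (whiskers), for siRNA-2, siRNA-3, scrambled siRNA (3 libraries each), NNT shRNA (4) and scrambled shRNA (3). INSIG1 lies at 191 to 242 CPM in siRNA-2 cells, below all other points, and MSMO1 lies at 231 to 353 CPM in siRNA-3 cells, above all other points.

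INSIG1 also stood apart from the enzymes inside the siRNA-2 libraries. Per kb of merged exon, INSIG1 was at 22.9%, 11.5% and 22.9% of the HMGCS1 level in siRNA-2 libraries 11-12, 11-1 and 16-1, at 33.3%, 32.5% and 39.3% in siRNA-3 libraries 11-1, 23-5 and 30-11, and at 32.8%, 27.2% and 39.8% in scrambled siRNA libraries 16-1, 23-5 and 30-11. The ratio ran from 30.0% to 35.7% with the NNT shRNA and from 30.5% to 36.1% with the scrambled shRNA. The 3 siRNA-2 libraries thus lay below the other 13. Library 11-1 of siRNA-2 had the lowest INSIG1 of the series together with the second highest HMGCS1 level. Its NNT was the lowest of the 3 siRNA-2 libraries, and a link with NNT was not tested. This ratio was computed after the levels had been seen and carries no test.

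MBTPS1, the protease that makes the first cut in SREBP2, stood at 201, 186 and 198 CPM in siRNA-2 cells, 233, 226 and 214 CPM in siRNA-3 cells, and 160.3, 154 and 199 CPM in scrambled siRNA cells. Each siRNA-3 library was above each scrambled siRNA library, and the siRNA-3 libraries overlapped the scrambled shRNA libraries, which stood at 214, 210 and 222.5 CPM. The log2 fold change of siRNA-3 against scrambled siRNA was 0.39 (SE 0.09, adjusted p = 0.0254), and that of siRNA-2 was 0.19 (SE 0.09, adjusted p = 0.246). The scrambled siRNA group was the lowest of the 5, with a log2 fold change against the scrambled shRNA of -0.33 (SE 0.09, adjusted p = 0.0565), which passed in DESeq2 (adjusted p = 0.0111) and without scrambled siRNA library 30-11 (-0.45, adjusted p = 0.00784). With the NNT shRNA, MBTPS1 was at 197 to 212 CPM (log2 fold change -0.05, SE 0.08, adjusted p = 1). The siRNA-3 call was lost without siRNA-3 library 11-1 (adjusted p = 0.118) or 23-5 (adjusted p = 0.0629), without scrambled library 16-1 (adjusted p = 0.106) or 23-5 (adjusted p = 0.115), and with only the groups compared (adjusted p = 0.134).

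SREBF2, SCAP, MBTPS2 and the sterol carrier gene STARD4 gave no call in edgeR's test or in DESeq2. SREBF2 itself varied little, at 227 to 255 CPM in siRNA-2 cells, 244 to 283 CPM in siRNA-3 cells and 247 to 252 CPM in scrambled siRNA cells, and at 185 to 249.6 CPM in NNT shRNA cells against 205 to 229.7 CPM in scrambled shRNA cells. Its log2 fold change was -0.13 between siRNA-2 and siRNA-3 (SE 0.10, adjusted p = 0.399) and 0.22 between the scrambled siRNA and the scrambled shRNA (SE 0.10, adjusted p = 0.245). MBTPS2, the protease of the second cut, stood at 46.5 to 49.7 CPM in siRNA-2 cells, above each scrambled siRNA library at 37.0 to 42.5 CPM (log2 fold change 0.26, SE 0.12, adjusted p = 0.233). SCAP group means ran from 275 to 292 CPM. STARD4 was at 148, 239.8 and 150.2 CPM in siRNA-2 cells, and its high value was in library 11-1, as for HMGCS1 and MVD.

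Single libraries moved the enzymes together. Taken as the median over the 19 enzymes of log2 CPM minus the mean over the 16 libraries, the set stood at -0.21, 0.06 and -0.16 in the siRNA-2 libraries 11-12, 11-1 and 16-1, at 0.36, 0.15 and 0.18 in the siRNA-3 libraries 11-1, 23-5 and 30-11, and at -0.15, 0.06 and 0.19 in the scrambled siRNA libraries 16-1, 23-5 and 30-11. In the shRNA cells it stood at 0.11, 0.06, -0.48 and -0.10 with the NNT shRNA (18-3, 19-2, 2-3 and 24-2), against -0.04, 0.14 and -0.26 with the scrambled shRNA (18-3, 19-2 and 24-2). The siRNA-2 and siRNA-3 sets did not overlap, while both overlapped the scrambled siRNA set. NNT shRNA library 2-3 was the lowest of the 7 shRNA libraries for 21 of the 26 genes, 17 of them enzymes. Its NNT stood at 34.6 CPM, and a link with the level of NNT was not tested. Among the 9 siRNA libraries, siRNA-3 library 11-1 was the highest for 14 of the 26 genes, 11 of them enzymes. By group mean, siRNA-3 was the highest of the 5 groups for 18 of the 26 genes, and siRNA-2 was the lowest for 9. The same counts were not made over all genes tested, so these counts do not show a trait particular to the pathway.

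**Figure D4:**
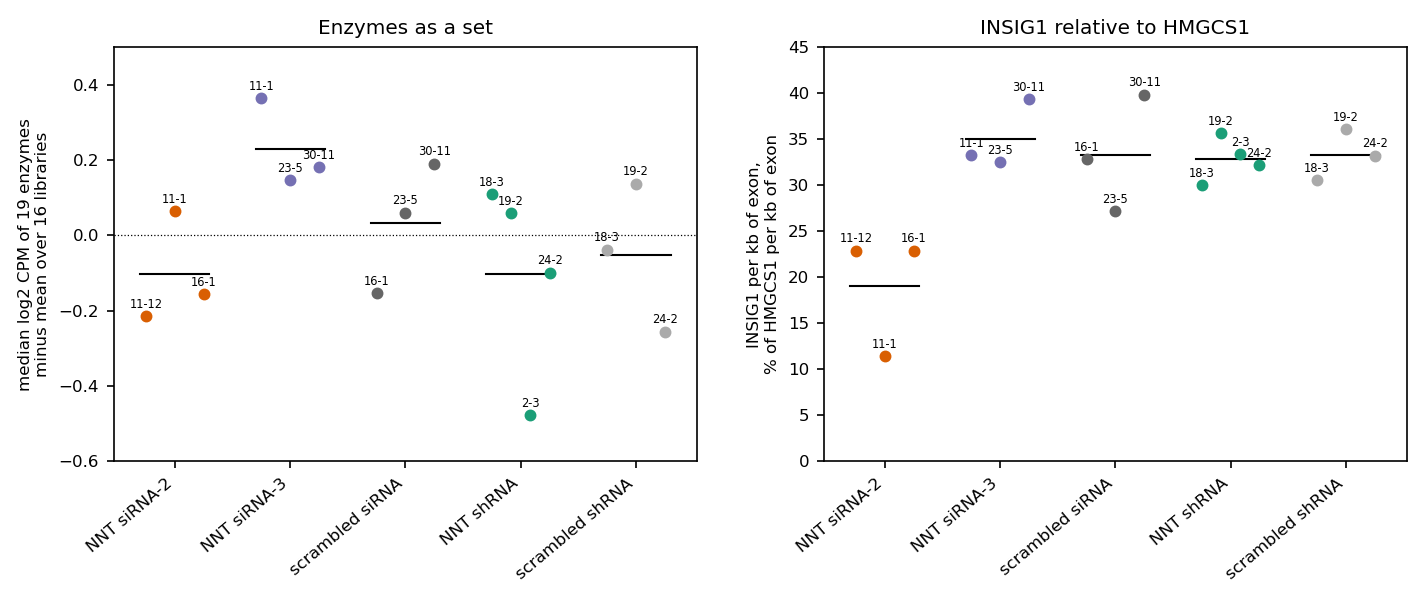
Left, the median over 19 enzymes of log2 CPM minus the 16-library mean in each library (points, with title codes) and the group mean (bar). Right, INSIG1 as a percentage of HMGCS1, both per kb of merged exon. On the left siRNA-3 lies at 0.15 to 0.36 and NNT shRNA library 2-3 at -0.48, and on the right the siRNA-2 libraries lie at 11.5 to 22.9%, below the 27.2 to 39.8% of all other libraries.

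**Figure D5:**
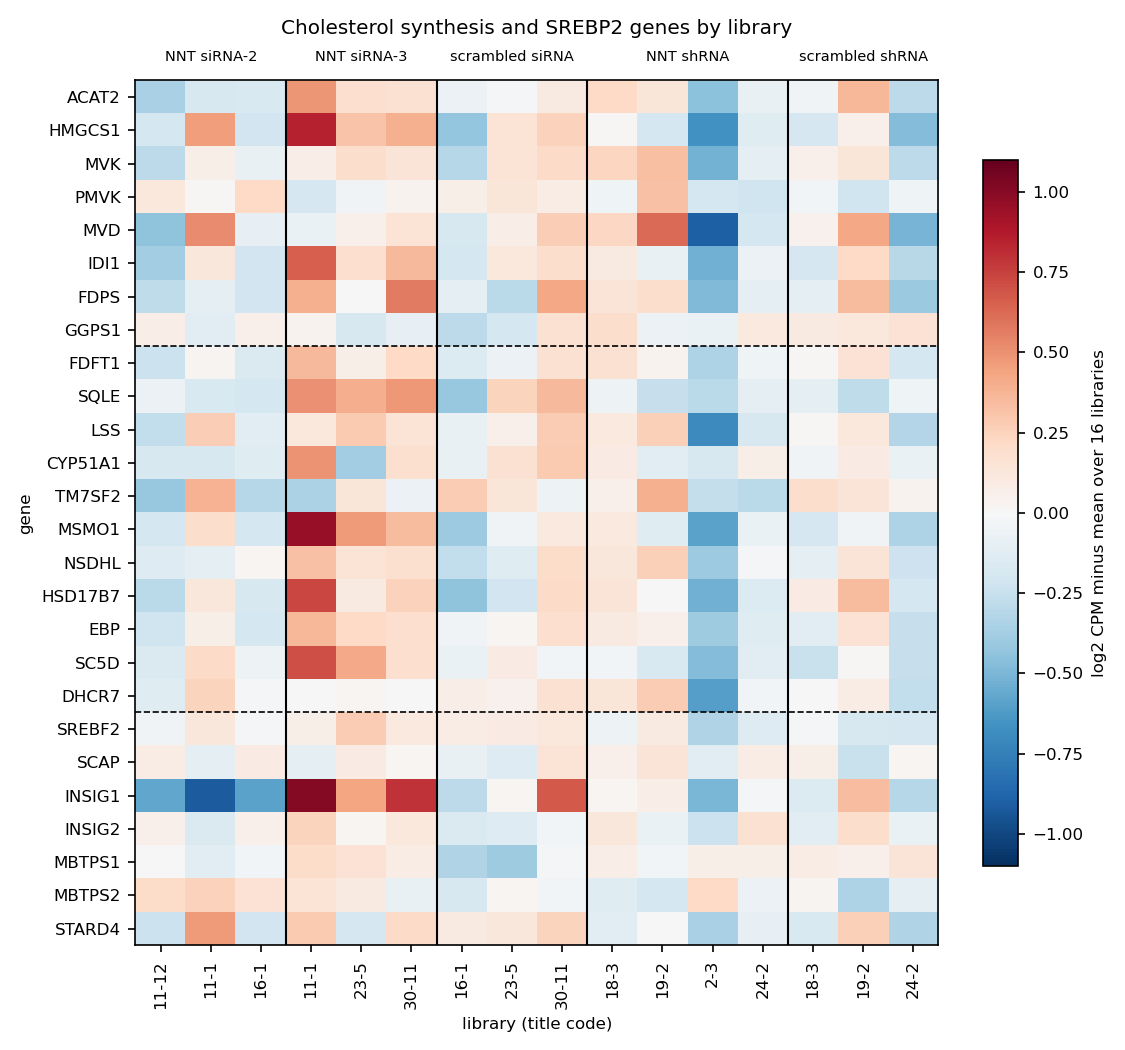
Log2 CPM minus the mean over the 16 libraries (colour, red higher and blue lower) for each gene (rows) in each library (columns, grouped). Dashed lines part the mevalonate and isoprenoid enzymes, the enzymes from squalene to cholesterol and the control genes. INSIG1 is blue in the 3 siRNA-2 libraries and red in the 3 siRNA-3 libraries, and most rows are blue in NNT shRNA library 2-3.

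Other measures moved between the siRNAs too. The summed adrenocortical markers were at 1528 to 1612 CPM in siRNA-2 cells, 2181 to 2399 CPM in siRNA-3 cells and 1462 to 2031 CPM in scrambled siRNA cells. The summed chromaffin and neural markers, of which 1 of 6 was at 0 in every library, were at 57.3 to 71.6 CPM in siRNA-2 cells, 33.0 to 43.9 CPM in siRNA-3 cells and 43.9 to 50.3 CPM in scrambled siRNA cells. The summed fibroblast markers, with all 6 detected in each group, were at 11.9 to 21.96 CPM in siRNA-2 cells, 7.99 to 11.3 CPM in siRNA-3 cells and 10.6 to 13.8 CPM in scrambled siRNA cells. All 3 sums separated siRNA-2 from siRNA-3 without overlap, and their part in the differences of the pathway was not tested. In RNA from whole cultures, fewer cells of a type and less RNA per cell cannot be told apart. Leaving out 1 library changed the number of pathway genes called between the siRNAs from 6 to 2 without siRNA-3 library 11-1, siRNA-2 library 11-12 or siRNA-2 library 16-1, when INSIG1 and SQLE remained, and to 7 without siRNA-2 library 11-1, when HMGCS1 and EBP were added and ACAT2 was not called. Without siRNA-3 library 23-5 it was 6, with CYP51A1 and not SC5D, and without siRNA-3 library 30-11 it was 5, without IDI1.

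Of the 47 genes in 4 lists of neighbouring pathways, 7 passed between the siRNAs, where 14.4% of all genes passed, and 1 passed with siRNA-2 against the scrambled siRNA, where 1.97% did. Of 14 genes that use isoprenoids, such as the prenyltransferases, 1 passed with siRNA-2 against the scrambled siRNA, RABGGTB, a subunit of the Rab prenyltransferase, which was higher (94.3 ± 20.6 CPM in siRNA-2 cells and 66.3 ± 4.37 CPM in scrambled siRNA cells, SD, n = 3 each, log2 fold change 0.51, adjusted p = 0.0422). Between the siRNAs 4 of the 14 passed. RABGGTB (log2 fold change 0.43) and ICMT, the methyltransferase of prenylated proteins (0.33), were higher with siRNA-2, and NUS1, a subunit of the dolichol-making prenyltransferase (-0.51), and FNTA, a subunit of farnesyltransferase (-0.30), were lower. The list's medians were 0.09 for siRNA-2 and 0.11 for siRNA-3, each against the scrambled siRNA, 0.06 between the siRNAs and 0.04 for the shRNA.

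Of 11 genes of sterol use, storage and efflux, SOAT1 and TMEM97 passed between the siRNAs. SOAT1, which esterifies cholesterol for storage, averaged 345 ± 90.4 CPM in siRNA-2 cells and 605.5 ± 42.6 CPM in siRNA-3 cells (SD, n = 3 each, log2 fold change -0.81, SE 0.15, adjusted p = 0.00221). TMEM97, a membrane protein that binds the cholesterol transporter NPC1, averaged 296.7 ± 14.99 CPM in siRNA-2 cells and 395.5 ± 31.0 CPM in siRNA-3 cells (SD, n = 3 each, log2 fold change -0.41, SE 0.10, adjusted p = 0.00986). Of 13 other genes of SREBP control and sterol sensing, 1 passed, RNF139, a ubiquitin ligase of the endoplasmic reticulum, which was lower with siRNA-2 than with siRNA-3 (log2 fold change -0.49, SE 0.08, adjusted p = 0.00110). Of 9 fatty acid genes that SREBPs also drive, 0 passed between the siRNAs in edgeR's test or in DESeq2, and 0 had an unadjusted p under 0.05. The medians between the siRNAs were -0.28 for sterol use, storage and efflux, -0.08 for the other control genes and -0.13 for the fatty acid genes. In the other 4 comparisons edgeR's test called 0 of these 47 genes. The count at an unadjusted p under 0.05 was 9 with siRNA-3 against the scrambled siRNA (17.8% of all genes), 0 with the shRNA (1.43%), 6 between the scrambled controls (16.8%) and 4 in the difference of effects (10.3%). DESeq2 called 3 of the 47 with siRNA-3, FNTA, NUS1 and RNF139, and 0 in the other 3 of these comparisons.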

How the data were processed

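The deposited values are whole-number read counts per gene, 1 file for each of 4 lanes of 16 libraries, made from poly(A)-selected, strand-marking libraries per the labels' protocols. The authors aligned reads with STAR 2.4.2a to hg19 and counted them with HTSeq 0.6.1p1, per the submitters' processing notes, which also name DESeq2 1.14.1. Neither an annotation nor a strand setting is named there. Reads in no gene (11.3 to 16.5% of a library), ambiguous reads and reads with several alignments were left out.

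The 4 lanes of a library were summed. Chi-square tests of the gene counts gave 1.00 to 1.04 per degree of freedom between lanes, and 7.71 to 34.6 between libraries of a group, so no library was a copy of another. Triplicates are named in the labels, but the NNT shRNA label is on 4 libraries. Group means of all 16 libraries were fitted together in edgeR 4.0.16 (R 4.3.3), with TMM scaling, the low-count filter (minimum count 10), quasi-likelihood tests and Benjamini-Hochberg adjustment over 15201 genes at 0.05, on 11 residual degrees of freedom, for 6 comparisons. Gene positions, exon lengths and exon overlaps came from GENCODE for GRCh38, not from the build of the counts, and promoter sequences from RefSeq. Analysis was tested on simulated counts.

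The 26 genes, the other lists and the markers were chosen with earlier results of these data known. Genes named with a test are those past the threshold and the 3 with the smallest p in each comparison, followed through the other comparisons; other genes of the pathway were named after their values were seen. Some enzymes of the pathway are not analysed here. The deviations of same-code shRNA libraries from their group means correlated by 0.141, 0.213 and 0.133. Those of shRNA libraries with different codes correlated by -0.181 to 0.156. Among siRNA libraries the range was -0.019 to 0.367 with the same code and -0.318 to 0.17 with different codes. Whether same-code libraries were pairs is not stated, and the reported fit did not pair them. Alternatives were DESeq2's scaling, its test (DESeq2 1.42.0), robust dispersion, only the groups compared, lane 1 alone, no filter, at least 5 CPM in 3 libraries as the filter, a block for the title code, and leaving out each library.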

Additional observations from a re-analysis of the deposited data

Results flagged for a closer look

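For 6 genes of the pathway the siRNA-2 effect and the siRNA-3 effect differed by the test of the difference itself (edgeR's quasi-likelihood test). The effects share the scrambled siRNA, which cancels, so the difference equals the comparison of siRNA-2 with siRNA-3. The log2 difference, siRNA-2 minus siRNA-3, was -1.45 for INSIG1, -0.60 for SQLE, -0.67 for MSMO1, -0.44 for SC5D, -0.51 for ACAT2 and -0.55 for IDI1, and each was lower with siRNA-2. In 14.4% of all genes tested the same difference passed.

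In the NNT shRNA group, the only one with enough libraries for a test of single values, 1 of the 26 genes had a library far from the rest. MBTPS1 stood at 197 CPM in library 19-2, and the nearest of the other 3 libraries was at 211 CPM. The gap took up 0.932 of the group's range, above Dixon's 95% limit for 4 samples, which chance passes in about 1 of 20 groups, and 26 genes were examined.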

How the results depend on the processing

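Depth limits these genes little, since the lowest count of any was 98, while 3 or 4 libraries in a group limit the precision. In all 6 comparisons the median log2 fold change of the 26 genes moved by less than 0.171 under each alternative. That value is the pooled SD between libraries of a group of the median level of the 26 genes. It is a wide limit, because it is the spread of single libraries while the medians compare groups, so staying within it does not show stability. It is larger than the median itself with siRNA-2, with the shRNA and between the controls, so there it does not show a stable sign. On leaving out each library these medians ran from -0.201 to 0.009, from -0.076 to 0.082 and from 0.008 to 0.168. With siRNA-2 against the scrambled siRNA the number of pathway genes called was 0 with only the groups compared, with robust dispersion and with the title code taken as a block, against 1 in the reported fit, and 0 to 1 on leaving out each library. With siRNA-3 it was 0 with only the groups compared and 1 with the block (MSMO1) or robust dispersion (MBTPS1), and 3 with no low-count filter or DESeq2 (SC5D added), against 2, and 0 to 3 on leaving out each library. Between the siRNAs it was 3 with only the groups compared (ACAT2, INSIG1 and SQLE), 8 with no low-count filter (EBP and FDPS added), 7 with DESeq2 (EBP added) and 5 with lane 1 only (HSD17B7 added, ACAT2 and IDI1 lost), against 6, and 2 to 7 on leaving out each library. Between the scrambled controls it was 1 (MBTPS1) with the stricter filter, DESeq2 or lane 1 only, against 0, and 0 to 1 on leaving out each library. In the difference of effects it was 1 (MBTPS1) with DESeq2, against 0. For the shRNA it was 0 throughout.

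With the title code as a block, INSIG1 with siRNA-2 (-0.85, adjusted p = 0.0627) and MBTPS1 with siRNA-3 (0.39, adjusted p = 0.0557) no longer passed against the scrambled siRNA, nor did SQLE (-0.37, adjusted p = 0.0973) and IDI1 (-0.37, adjusted p = 0.0960) between the siRNAs, where FDPS and MVD passed instead. The deviations of same-code siRNA libraries from their group means correlated by 0.361 (23-5) and 0.367 (30-11) between siRNA-3 and scrambled, by -0.019 between the siRNAs (11-1) and by 0.014 between siRNA-2 and scrambled (16-1), with at most 2 shared codes in a comparison. The reported fit took no codes as pairs. With the shRNA, where 3 codes are shared, the block changed no call of a pathway gene, but INSIG1 turned to 0.067. Codes that occur in 1 library, 11-12 and 2-3, are in effect left out by the block, and the scrambled controls share no code, so no blocked value exists between them. Other log2 fold changes that turned were all close to 0 and not called: with siRNA-2 against scrambled, MSMO1 at -0.031 and SC5D at -0.077 with the block and SC5D at -0.015 with lane 1 only. On leaving out each library, MSMO1 ran from -0.091 to 0.154 and SC5D from -0.100 to 0.089 with siRNA-2, INSIG1 from -0.202 to 0.141, MBTPS2 from -0.003 to 0.180 and SCAP from -0.001 to 0.143 with the shRNA, and INSIG1 from -0.103 to 0.425 between the controls. The cause was not tested.

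Calls over all genes moved by more than 1.5 times. With siRNA-2 they numbered 1 with only the groups compared, 184 with lane 1, 464 with no filter, 490 with the block and 907 with DESeq2, against 299. With siRNA-3 they numbered 56 with only the groups compared and 856 with DESeq2, against 323. Between the siRNAs they numbered 530 with only the groups compared, against 2191. Between the controls they numbered 118 with lane 1 and 658 with DESeq2, against 264, and in the difference of effects 29 with no filter and 119 with DESeq2, against 7. For the shRNA they numbered 1 with the stricter filter, the block or lane 1, against 3. On leaving out 1 library they numbered 2 (without scrambled siRNA 16-1) to 619 (without siRNA-2 11-12) with siRNA-2, 69 (without siRNA-3 11-1) to 530 (without siRNA-3 30-11) with siRNA-3, 1091 (without siRNA-2 11-1) to 2101 (without siRNA-2 11-12) between the siRNAs, 32 (without scrambled siRNA 23-5) to 456 (without scrambled siRNA 30-11) between the controls, 0 (without scrambled shRNA 18-3) to 42 (without siRNA-3 30-11) in the difference, and 1 to 2 with the shRNA.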
